A study of Mus musculus with 6 samples.

Results

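Inhibitory receptors of T cells and an ectonucleotidase that often marks the same cells were read across mouse helper T cell cultures labelled wild type and Ezh2 KO (knockout). The genes were chosen by name, with earlier results of these data known: Pdcd1, Ctla4, Lag3, Havcr2, Tigit, Cd160, Cd244a, Btla and Entpd1. Every probe set annotated to exactly 1 of these 9 symbols was used, which gave 14 of the 45101 probe sets on the array and covered 8 of the 9 genes. No probe set of this annotation was assigned to Tigit alone, so that gene was not analysed here. Naive CD4 T cells from the spleen of C57BL/6 mice of both genotypes were activated on plates coated with anti-TCRβ (10 µg/ml) in the presence of anti-CD28 (1 µg/ml) and IL-2 (15 ng/ml). They were cultured for 5 days, 2 with and 3 without the antibodies. For Th1 cells, IL-12 was added at 1 ng/ml together with anti-IL-4. For Th2 cells, IL-4 was added at 10 ng/ml together with anti-IFN-γ, and unpolarized cells received both of these antibodies without a polarizing cytokine. Each of the 6 combinations of genotype and culture was read on 1 array. The labels name neither the deleted part of Ezh2 nor what drives the deletion, and do not say whether the cultures of 1 genotype came from separate mice.

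Inhibitory receptors hold activated T cells in check. PD-1 (Pdcd1) and BTLA recruit the phosphatases SHP-1 and SHP-2 through tyrosine motifs in their tails, CTLA-4 competes with CD28 for CD80 and CD86, LAG-3 binds MHC class II, and TIM-3 (Havcr2) binds galectin-9 among other ligands. CD160 and BTLA share the ligand HVEM, and 2B4 (Cd244a) binds CD48. CD39, the product of Entpd1, breaks down extracellular ATP, and CD73 (Nt5e) completes the path to adenosine, which dampens T cells. Ezh2 is a histone methyltransferase of the Polycomb group that modifies lysine 27 of histone H3 at silent genes.

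Values are intensities on a linear scale that the authors had scaled to a common trimmed mean. An intensity under 64.43, the median of all values, is called low here, and for log2 differences values were raised to a floor of 11.33. With a limma fit to all 6 arrays, culture as a block and Benjamini-Hochberg adjustment, 966 of 11572 genes tested were called higher in Ezh2 KO (8.35%) and 924 lower (7.98%), at an adjusted p under 0.05. The p-values rest on the spread among these arrays alone, which may be technical, and 1 array a group limits the precision. In what follows, the 3 values of a genotype are given in the order unpolarized, Th1, Th2. Ezh2 itself read 7002, 6553 and 7677 on wild type arrays, against 4971, 4876 and 4946 on Ezh2 KO arrays. Its signal in the arrays labelled Ezh2 KO was therefore lower but far from absent, at a log2 difference of -0.52 ± 0.11 (SD, n = 3 pairs of arrays; limma adjusted p = 0.04368), a call lost with each array centred on its median (-0.47, adjusted p = 0.0922). A probe set outside the deleted part would check nothing.

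Havcr2, Cd160, Cd244a and Entpd1 rose in Ezh2 KO cells in all 3 cultures, by 2.14 to at least 4.08 on the log2 scale. Pdcd1, Ctla4 and Btla did not pass the test. All 4 calls were lost with no filter on dim genes (adjusted p = 0.0769 to 0.0797) and on leaving out the arrays of any 1 culture (0.0803 to 0.112), with the direction kept. Because the cultures were measured in bulk, more cells of a type and more RNA per cell cannot be told apart. Of the 9 genes, 7 were tested, 4 were called higher and 0 lower, Lag3 was too dim to test and Tigit had no probe set. Among all genes tested 8.35% were called higher. Havcr2 and Cd244a passed the filter on low values only through their Ezh2 KO arrays, as did Klrc1, Ahr and Fcgr3 among the genes given further on, so a difference was built into their being tested, and the share of genes called is a description. In each of the 4 genes the lowest Ezh2 KO array read above the highest wild type array, an arrangement that 20.1% of all genes tested showed. The 4 genes also read at least 2-fold higher in all 3 cultures, as did 3.85% of all genes tested. Culture by culture, 4 of the 7 were at least 2-fold higher in unpolarized, Th1 and Th2 cultures, beside 7.55%, 7.28% and 9.61% of all genes. Ctla4 alone was at least 2-fold lower in unpolarized and Th1 cultures, beside 5.80% and 4.42%, and 0 of the 7 were in Th2 cultures, beside 5.98%.

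**Figure D1:**
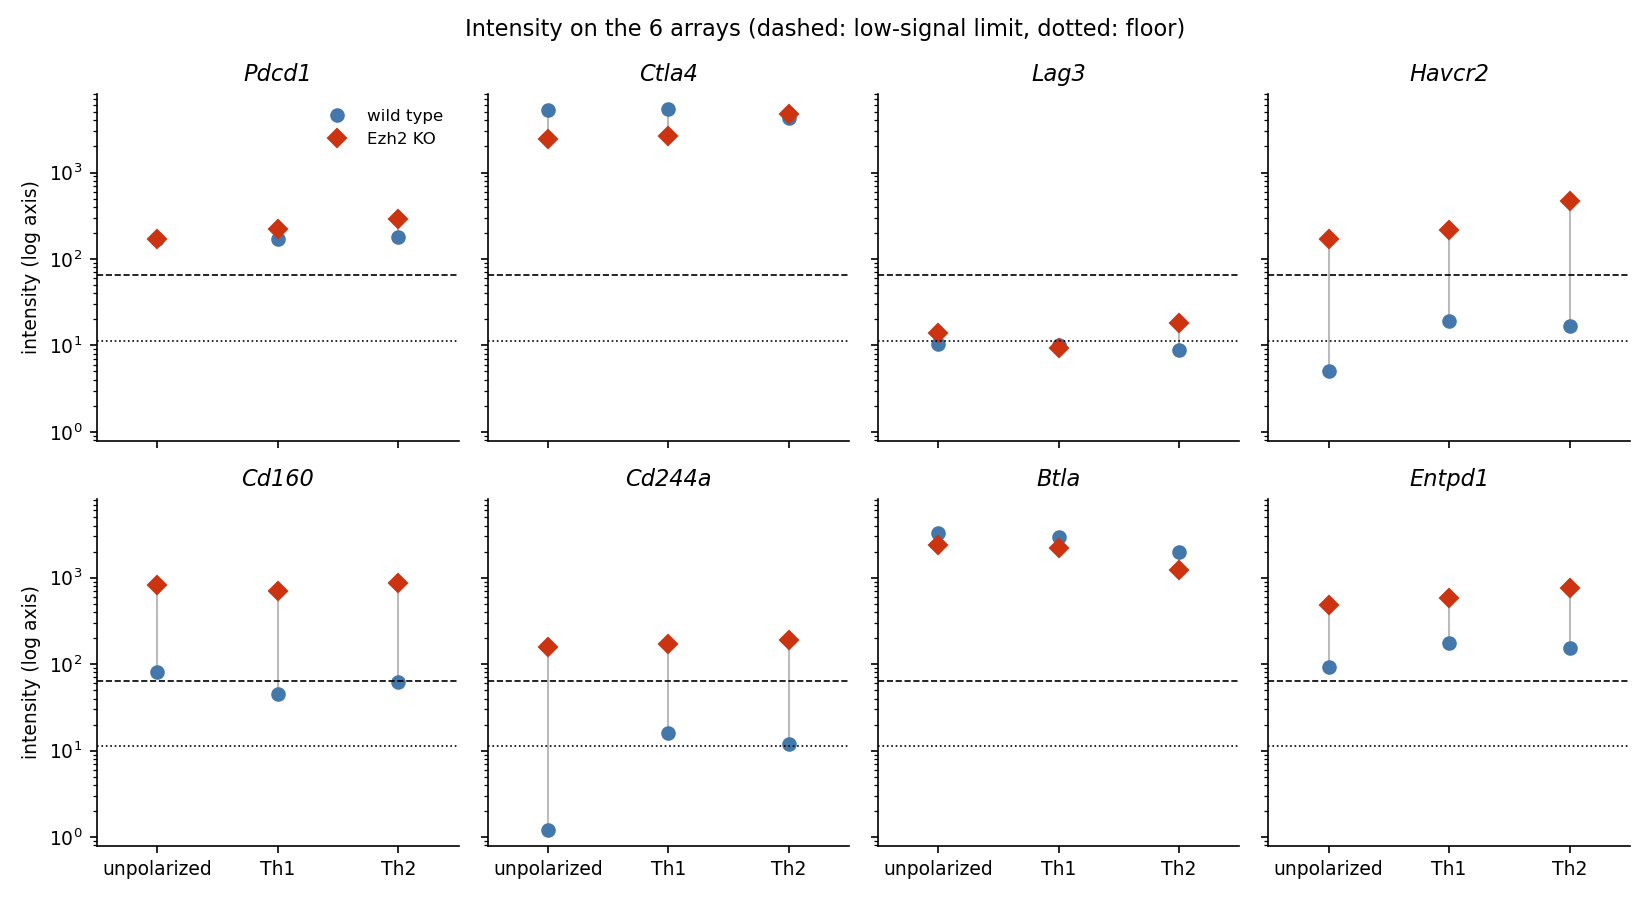
Intensity (log axis) of the 8 genes with a probe set on the 6 arrays, by culture, with wild type as blue circles and Ezh2 KO as red diamonds. Grey lines join the 2 arrays of a culture, the dashed line is the low-signal limit of 64.43 and the dotted line the floor of 11.33; Havcr2, Cd160, Cd244a and Entpd1 are higher in Ezh2 KO in every culture, and Lag3 stays near the floor.

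Havcr2 encodes TIM-3, a receptor of interferon gamma-producing and chronically stimulated T cells. It read 5.011, 19.24 and 16.79 on wild type arrays, against 172.3, 217.3 and 472.1 on Ezh2 KO arrays. All wild type arrays were thus low and all Ezh2 KO arrays were above the limit, with the Th2 culture the brightest. The log2 difference was at least 4.08 ± 0.67 (SD, n = 3 pairs), at least 16.9-fold, with a limma adjusted p of 0.01998, and was the 37th highest of 11572. Within single cultures, which have no replicate and no test, Ezh2 KO read at least 15.2-fold higher in unpolarized, 11.3-fold in Th1 and 28.1-fold in Th2 cultures. These folds rest on wild type readings close to the floor. With a higher floor, the 40th percentile, the mean was 2.80, and with log2 of the value plus 64 it was 2.09.

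Cd160 encodes a receptor of cytotoxic and NK cells that binds HVEM. Wild type arrays read 80.0, 44.69 and 62.42 with its brightest probe set, and Ezh2 KO arrays read 814.0, 704.5 and 873.2. The groups did not overlap, and the Ezh2 KO arrays lay close together whatever the culture. The log2 difference was 3.71 ± 0.33 (n = 3 pairs), 13.1-fold, with a limma adjusted p of 0.01429. Its other 3 probe sets moved the same way in every culture, with mean differences of at least 4.31 ± 1.24, 2.20 ± 0.17 and 1.85 ± 0.29. Of their wild type arrays 1, 2 and 3 were at the floor, which also narrows the spread. The last of these was low on all 6 arrays and was not tested.

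Cd244a encodes 2B4, a receptor of the SLAM family that can activate or inhibit depending on the adaptors a cell contains. It read 1.21, 16.02 and 11.86 on wild type arrays, against 157.0, 169.8 and 189.1 on Ezh2 KO arrays. Every wild type array was low, as for Havcr2, but the Ezh2 KO arrays lay closer together than those of Havcr2. The difference was at least 3.73 ± 0.30 on the log2 scale (n = 3 pairs; limma adjusted p = 0.01429), or at least 13.3-fold. Its second probe set gave at least 3.16 ± 0.66. With log2 of the value plus 64 the Cd244a difference was 1.68, so its size depends on how low readings are treated. With no floor the mean was 4.81 (limma adjusted p = 0.0479), and the unpolarized difference was 7.02 instead of 3.79. The floor thus also narrows the spread given for Cd244a.

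Entpd1, the ectonucleotidase gene, had measurable signal in wild type. Its brightest probe set read 91.61, 177.6 and 154.6 on wild type arrays, against 480.6, 582.1 and 768.2 on Ezh2 KO arrays. Both groups were above the low-signal limit throughout and did not overlap. The log2 difference was 2.14 ± 0.37 (n = 3 pairs), 4.40-fold, with a limma adjusted p of 0.02175. The other 2 probe sets, of lower signal, gave 1.39 ± 0.90 and at least 2.81 ± 1.15 and also did not overlap between genotypes. Tested on their own, they did not pass (adjusted p = 0.103 and 0.0533, against 0.0297 for the brightest in the same fit). In all 3 probe sets the smallest difference was in Th1 cultures (1.71, 0.63 and 1.49).

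Over the 14 probe sets, 12 had enough signal for a fit to single probe sets, in which 5.10% of 21563 were called higher and 4.08% lower. Of the 12, 7 were called higher and 0 lower. In 9 of the 12 all Ezh2 KO arrays read above all wild type arrays, beside 17.9% of the 21563. These 9, and the dim Cd160 probe set that was not tested, are all 10 probe sets of Havcr2, Cd160, Cd244a and Entpd1. The probe sets of Havcr2 and Cd244a, and some of Cd160 and Entpd1, passed the filter on low values only through Ezh2 KO arrays. A difference was thus built into their being tested, and the counts are a description. Probe sets of 1 gene share their RNA and are not replicates.

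**Figure D2:**
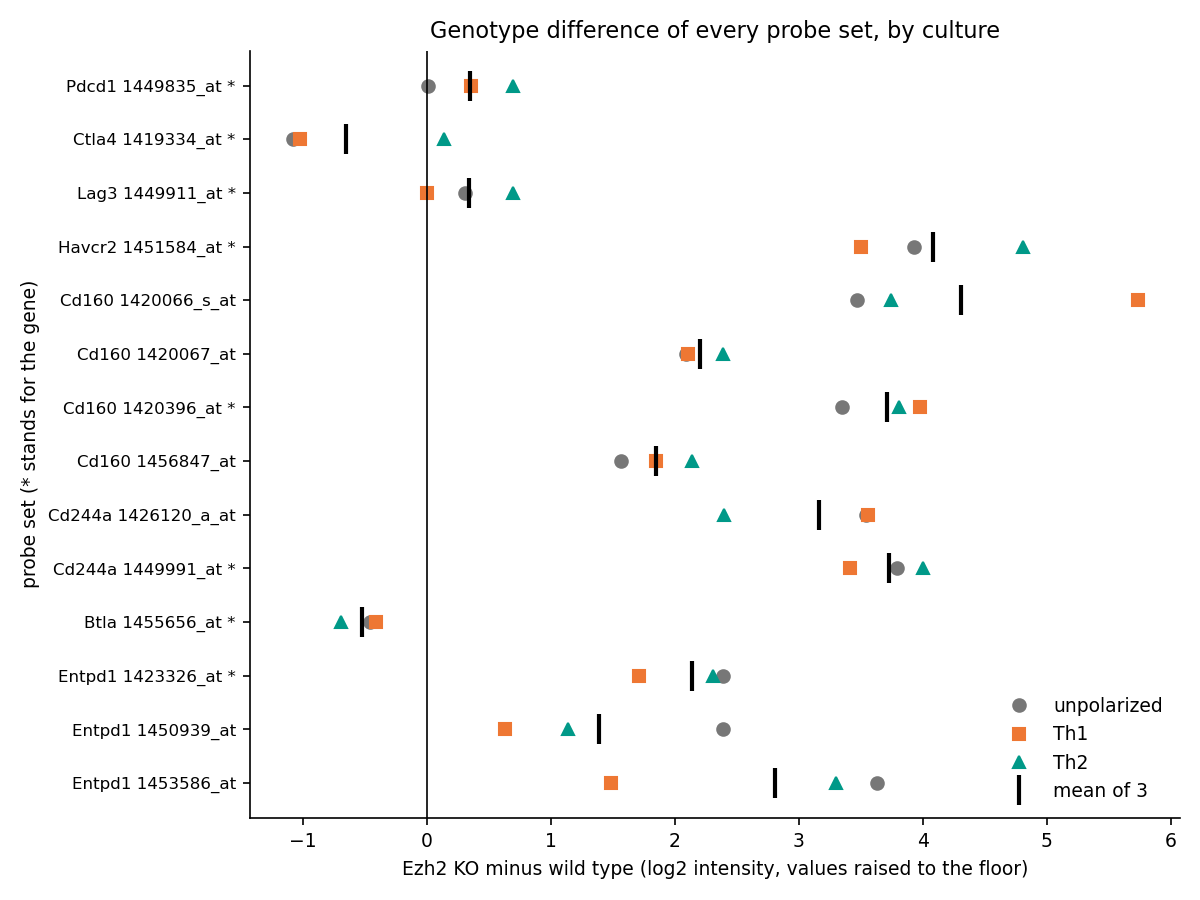
Ezh2 KO minus wild type log2 difference of each of the 14 probe sets (rows; the star marks the one that stands for its gene) in unpolarized (grey circles), Th1 (orange squares) and Th2 (green triangles) cultures, with the mean of the 3 as a black bar. All probe sets of Havcr2, Cd160, Cd244a and Entpd1 lie to the right of 0 in each culture, while Ctla4 lies on both sides.

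Promoter windows of the 4 genes that rose are shown because those genes were called in the same direction, with capitals marking matches to searched motifs. The windows are the 250 bases before a RefSeq start site (GRCm38.p6), printed on the gene's strand. The RUNX motif was searched as TGTGGT on both strands. The T-box motif was searched likewise as GGTGTGA. For AP-1 the letters were TGANTCA, which read the same on both strands. The GATA motif was AGATAA, again on both strands. No match in these windows overlapped another. Havcr2 lies at chr11:46454681-46454930 (plus strand), Cd244a at chr1:171558943-171559192 (plus strand), Cd160 at chr3:96814522-96814771 (minus strand, the start site with more matches of its 2) and Entpd1 at chr19:40612116-40612365 (plus strand, the first of its 2).
Havcr2: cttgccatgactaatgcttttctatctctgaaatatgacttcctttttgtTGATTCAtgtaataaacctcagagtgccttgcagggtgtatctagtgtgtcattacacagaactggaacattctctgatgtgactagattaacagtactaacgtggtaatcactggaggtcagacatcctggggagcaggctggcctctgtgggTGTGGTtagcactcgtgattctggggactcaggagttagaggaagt
Cd244a: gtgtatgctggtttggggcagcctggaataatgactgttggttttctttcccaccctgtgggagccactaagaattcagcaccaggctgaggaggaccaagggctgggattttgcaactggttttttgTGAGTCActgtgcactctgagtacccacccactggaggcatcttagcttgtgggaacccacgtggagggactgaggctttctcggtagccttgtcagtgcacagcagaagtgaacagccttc
Cd160: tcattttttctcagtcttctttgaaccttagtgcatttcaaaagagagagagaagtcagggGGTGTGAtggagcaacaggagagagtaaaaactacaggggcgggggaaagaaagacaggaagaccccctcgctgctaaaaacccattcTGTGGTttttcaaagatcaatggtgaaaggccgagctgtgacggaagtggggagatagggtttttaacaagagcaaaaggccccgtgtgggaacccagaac
Entpd1: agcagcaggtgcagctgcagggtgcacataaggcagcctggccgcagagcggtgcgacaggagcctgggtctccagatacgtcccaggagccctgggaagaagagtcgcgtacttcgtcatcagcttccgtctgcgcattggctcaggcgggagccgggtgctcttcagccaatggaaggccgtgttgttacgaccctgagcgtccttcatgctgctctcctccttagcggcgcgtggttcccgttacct

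The windows shared little. An AP-1 match stood in those of Havcr2 (200 bases before the start) and Cd244a (122 bases before it), against 6.75% of the 32851 windows in the RefSeq table. RUNX matches stood in 5 of the 10 windows of 8 genes found there, namely Havcr2, both of Cd160, Tigit and Btla, against 14.05% of all windows. Genes that rose and Btla, which was lower in each Ezh2 KO culture, thus both had one. The printed Cd160 window held the 1 T-box match (3.33% of all windows), and the Tigit window the 1 GATA match (9.99%). CG dinucleotides numbered 2 in Havcr2, 2 in Cd244a, 5 in each Cd160 window, 18 in the printed Entpd1 window and 8 in that of its other start site, with a median of 6 over all windows. Of all windows, 80.3% had 18 or fewer, 59.7% had 8 or fewer and 29.0% had 2 or fewer. Which start site the cells used was not measured, and a match is a description of letters.

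Pdcd1, which encodes PD-1, was measurable and nearly level in wild type. It read 169.4, 171.9 and 177.9 on wild type arrays, against 170.0, 220.3 and 288.2 on Ezh2 KO arrays. The unpolarized arrays were almost equal, and the Th1 and Th2 arrays of Ezh2 KO read higher. The log2 difference of 0.35 ± 0.35 (n = 3 pairs) did not pass (limma adjusted p = 0.2091), which does not show that the genotypes were alike.

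Ctla4, which encodes CTLA-4, was bright on every array. It read 5217 and 5385 in wild type unpolarized and Th1 cultures against 2465 and 2663 in Ezh2 KO, 2.12-fold and 2.02-fold lower. In Th2 cultures it read 4316 in wild type and 4744 in Ezh2 KO. The unpolarized and Th1 pairs thus stood apart while the Th2 pair was nearly equal, and the genotypes overlapped. The sign of the difference was not the same in the 3 cultures for Ctla4, as for 37.6% of all genes tested. The mean was -0.65 ± 0.69 (n = 3 pairs; limma adjusted p = 0.2035). The difference between cultures has no test, because each genotype and culture had 1 array. Only 27 of 11572 genes (0.233%), Ctla4 among them, read at least 2-fold lower in unpolarized and Th1 cultures and not lower in Th2 cultures. This pattern was chosen after Ctla4 was seen. With moderation by an intensity trend the Ctla4 call passed (adjusted p = 0.0429), and without the Th2 pair its mean was -1.05 (adjusted p = 0.103).

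Btla encodes a receptor that binds HVEM and is high on naive and follicular T cells. It read 3320, 2938 and 1969 on wild type arrays, against 2410, 2213 and 1219 on Ezh2 KO arrays. Ezh2 KO was lower within each culture, by 0.46, 0.41 and 0.69 on the log2 scale, but the groups overlapped because both genotypes were lowest in Th2 cultures. The difference of -0.52 ± 0.15 (n = 3 pairs) lay at the threshold, with a limma adjusted p of 0.05004. It passed with quantile normalization (adjusted p = 0.0473) and not with each array centred on its median (adjusted p = 0.103), so its call depends on the scaling.

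Lag3, which encodes LAG-3, read 10.29, 10.13 and 8.924 on wild type arrays, against 14.08, 9.322 and 18.35 on Ezh2 KO arrays. All 6 arrays were under the low-signal limit, and 4 were under the floor, so no level or fold can be read for it. With no filter on dim genes its difference of 0.34 did not pass (limma adjusted p = 0.353). A low reading of 1 probe set does not show that the transcript was absent.

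Culture conditions gave no call among these genes. For Th1 against unpolarized, Th2 against unpolarized and Th2 against Th1, limma with genotype as a block called 0 of 11572 genes (0% higher and 0% lower), while 632, 775 and 878 genes (5.46%, 6.70% and 7.59%) had an unadjusted p under 0.05. Of the 7 genes tested, 0, 2 and 1 had an unadjusted p under 0.05. Th1 and Th2 contrasts share the unpolarized arrays, so they are given side by side. Btla was lower in Th2 than in unpolarized cultures by 0.75 in wild type and by 0.98 in Ezh2 KO (mean -0.87, SE 0.12, limma adjusted p = 0.507), and by 0.18 and 0.12 in Th1. Entpd1 was higher than in unpolarized cultures in both genotypes, by 0.96 and 0.28 in Th1 and by 0.75 and 0.68 in Th2 (wild type, then Ezh2 KO).

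Among Ezh2 KO cultures, 6 of the 7 genes tested were brightest in Th2, Btla being the exception. The share of all genes brightest on that array was not computed, so the count describes 1 array and not a trait of these genes. Havcr2 was 1.12 higher in Th2 than in Th1 cultures on the log2 scale in Ezh2 KO, and 0.20 lower in wild type, where it was near the floor. Ctla4 was 0.83 higher in Th2 than in Th1 cultures in Ezh2 KO and 0.32 lower in wild type. Pdcd1 was 0.39 higher in Ezh2 KO and 0.05 higher in wild type. These differences rest on 1 array each, and whether they differ between genotypes was not tested. Cd160 differed between cultures by at most 0.31 within Ezh2 KO and by up to 0.84 within wild type.

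**Figure D3:**
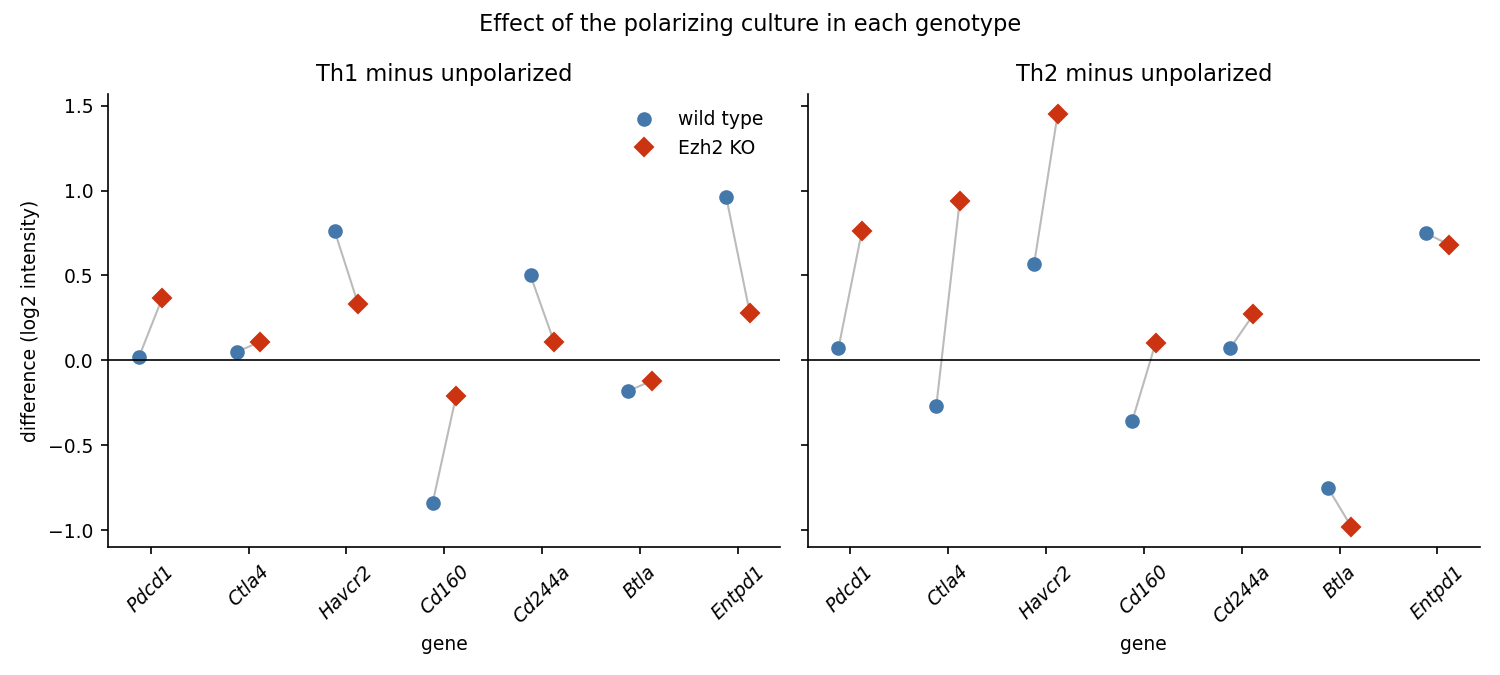
Log2 difference of Th1 (left) and Th2 (right) from unpolarized cultures for the 7 genes tested, in wild type (blue circles) and Ezh2 KO (red diamonds), 1 pair of arrays per point and the unpolarized arrays shared by both panels. Ctla4 in Th2 cultures is at -0.27 in wild type and 0.94 in Ezh2 KO, and Btla is below 0 in both genotypes.

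Likeness between genes was measured as the root mean square difference of log2 values, each gene centred on its own mean over the 6 arrays, so that a smaller value means a closer profile. Cd160 and Cd244a were closest to each other among the 7 genes (0.41), followed by Havcr2 and Cd244a (0.43), and Havcr2 and Btla were farthest apart (2.45). The nearest genes were sought among those tested, leaving out genes without a standard symbol, such as clone names. Those nearest to Havcr2 were Adam8 (0.31), a metalloprotease gene, Ctla2b (0.33) and Plxdc2 (0.35). Csf2 (0.21), which encodes GM-CSF, Tgfb3 (0.24) and the T cell receptor gamma segment Trgv1 (0.28) were nearest to Cd160. For Cd244a they were Fam20a (0.14), Aqp9 (0.15) and Plxdc2 (0.20), and for Entpd1 the pro-death gene Pmaip1 (0.12), Akr1b8 (0.15) and Actn2 (0.16). Ikzf2, which encodes Helios, a factor of regulatory T cells, was among the 3 nearest to Ctla4 (0.12). It read 1004, 1067 and 806.2 on wild type arrays, against 447.4, 485.7 and 723.2 on Ezh2 KO arrays, also low in the unpolarized and Th1 cultures of Ezh2 KO, and its mean of -0.82 ± 0.57 did not pass (limma adjusted p = 0.1083).

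Ligands of these receptors were measured in the same cells. Of 13 listed, 10 were tested, 3 rose and 1 fell, with a median of 0.49 against -0.07 over all genes tested. The counts of this and the following lists stand beside 8.35% higher and 7.98% lower among all genes tested. Lgals3, which encodes galectin-3, a ligand of LAG-3, went from 593.1, 1080 and 448.0 on wild type arrays to 22590, 18840 and 23780 on Ezh2 KO arrays (log2 5.04 ± 0.82, limma adjusted p = 0.01998). Both PD-1 ligands rose: Cd274 (PD-L1) by 0.91 ± 0.15 and Pdcd1lg2 (PD-L2) by 0.89 ± 0.23. Pvr, which encodes the TIGIT ligand CD155, fell by 0.81 ± 0.09. Cd48, which binds 2B4, gave 0.71 ± 0.35 and Cd80 gave 0.68 ± 0.25, neither past the threshold (limma adjusted p = 0.06936 and 0.05022). Lgals9, which encodes the TIM-3 ligand galectin-9, gave 0.30 ± 0.38 and did not pass (limma adjusted p = 0.2941). Tnfrsf14, which encodes HVEM, was low on every array and was not tested.

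Of 12 receptors that stimulate T cells or compete for these ligands, all tested, 3 rose and 2 fell, with a median of 0.41. Slamf7, a SLAM family receptor, rose by 1.87 ± 0.71, Tnfrsf9 (4-1BB) by 1.68 ± 0.36 and Cd96, which shares CD155 with TIGIT, by 1.56 ± 0.31. Cd27 fell by 1.15 ± 0.13 and Cd2 by 0.64 ± 0.13, the latter not called with each array centred on its median (adjusted p = 0.0746). Cd28, the competitor of CTLA-4, gave 0.38 ± 0.19 and did not pass (limma adjusted p = 0.1005).

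Among 16 other inhibitory receptors, 10 were tested, 4 rose and 2 fell, with a median of 0.61. Cd200r1, the receptor of CD200, read 20.79, 74.13 and 68.04 on wild type arrays, against 652.3, 572.8 and 1113 on Ezh2 KO arrays (log2 3.98 ± 1.01, limma adjusted p = 0.02741). Its ligand gene Cd200 fell by 1.24 ± 0.38. Klrc1 (NKG2A) rose by at least 3.77 ± 0.22, Lair1, a collagen receptor, by 1.08 ± 0.38 and Vsir (VISTA) by 0.64 ± 0.11, and Cd6 fell by 0.66 ± 0.11, a call lost with median centring (adjusted p = 0.0551).

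Of 12 phosphatases and adaptors tested that work below the receptors, 1 rose and 1 fell, with a median of -0.09. These counts are near the shares among all genes. Inpp5d (SHIP-1) rose by 0.66 ± 0.13 and Ptpn6 (SHP-1) fell by 0.74 ± 0.20, whereas Ptpn11 (SHP-2) gave -0.04 ± 0.11 (limma adjusted p = 0.7614). With each array centred on its median, 0 of the 12 were called.

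Genes of the ATP and adenosine pathway, in which Entpd1 acts, gave a median of -0.28, with 2 higher and 2 lower of 15 tested, little above the shares among all genes. The next enzyme of the path, Nt5e (CD73), read 1222, 1346 and 1029 on wild type arrays, against 2180, 1954 and 1438 on Ezh2 KO arrays, higher by 0.62 ± 0.19 (limma adjusted p = 0.04579). Ada, adenosine deaminase, which removes adenosine, rose by 0.78 ± 0.26, and Pnp, purine nucleoside phosphorylase, fell by 0.92 ± 0.18. P2rx7, the ATP-gated channel, read 1049, 682.2 and 1141 on wild type arrays, against 153.5, 166.5 and 167.8 on Ezh2 KO arrays, a fall by 2.52 ± 0.42 (limma adjusted p = 0.02132). Its groups did not overlap, and the Ezh2 KO arrays were nearly equal. With each array centred on its median, P2rx7 and Pnp kept their calls, and Nt5e and Ada did not (adjusted p = 0.0725 and 0.0512). The other Entpd genes tested, Entpd2, Entpd3, Entpd5, Entpd6 and Entpd7, had means from -0.76 to -0.07, and none passed.

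Of 19 transcription factors tested that are tied to inhibitory receptor expression, 7 rose and 2 fell, with a median of 0.23. The largest of the called rises were Maf at 6.31 ± 0.54, Ahr at 4.52 ± 0.23 and Eomes at 2.48 ± 0.27. Next among the called were Prdm1 at 2.41 ± 0.73, Id2 at 2.04 ± 0.14 and Bhlhe40 at 1.22 ± 0.25. Tbx21, not called, had a mean of 1.59 ± 1.15 (limma adjusted p = 0.1083). Its differences were 2.44 in unpolarized, 0.28 in Th1 and 2.05 in Th2 cultures. Bach2, a repressor of effector genes, fell by 0.92 ± 0.34, and Nr4a1, induced by T cell receptor signals, fell by 0.69 ± 0.24. With median centring neither was called (adjusted p = 0.0507 and 0.0547), while all 7 rises were. Tox, a factor of exhausted T cells, gave -0.17 ± 0.44 and Nfatc1 gave -0.10 ± 0.17, neither past the threshold (limma adjusted p = 0.5637 and 0.5455).

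**Figure D4:**
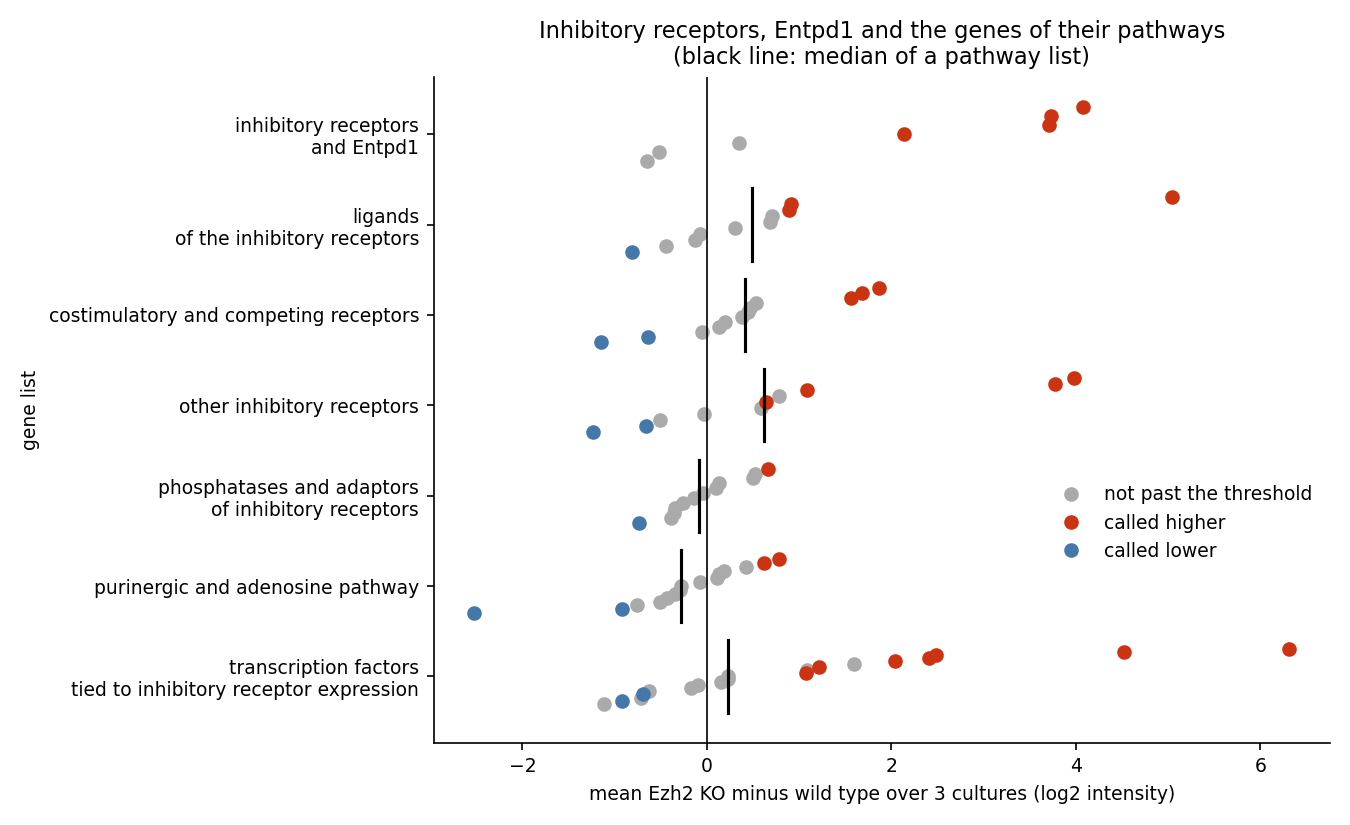
Mean Ezh2 KO minus wild type log2 difference over the 3 cultures (1 point per gene tested) for the inhibitory receptors with Entpd1 and for 6 lists of pathway genes, with red for called higher, blue for called lower, grey for not past the threshold and a black line at the median of each pathway list. Lgals3, Cd200r1, Klrc1, Ahr and Maf lie as far to the right as Havcr2, Cd160 and Cd244a, at 3.71 or more, and P2rx7 lies farthest to the left.

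Genes next to these on the chromosome were compared after the values above were seen. Among the 5 protein-coding genes on each side of the 9 genes in RefSeq order, 49 of 90 neighbours were tested, 4 were called higher and 3 lower, near the 8.35% and 7.98% of all genes tested. For Havcr2 on chromosome 11, the 3 tested neighbours Cyfip2, Fam71b and Med7 had differences between -0.03 and 0.25. Cd160 on chromosome 3 had 5 tested neighbours, of which Acp6 was called lower (-0.76 ± 0.12) and the others lay between 0.08 and 0.27. Cd244a on chromosome 1 lies among the SLAM genes, where Slamf7 was called higher, Cd48 gave 0.71 ± 0.35, and Ly9 (-0.10 ± 0.11) and Slamf1 (-0.05 ± 0.23) did not pass. Entpd1 on chromosome 19 had 7 tested neighbours, of which Dntt, the fifth gene along, was called higher (0.62 ± 0.08), while Blnk gave 1.66 ± 1.25 and did not pass (limma adjusted p = 0.1155). Ctla4 on chromosome 1 stands between Cd28 and Icos, whose means were 0.38 ± 0.19 and 0.53 ± 0.45, and Raph1 nearby was called higher (0.82 ± 0.11). Btla on chromosome 16 stands beside Cd200, which fell, and near Slc35a5, which was called higher (0.58 ± 0.12). The remaining call was Ccdc191 near Tigit, lower by 0.80 on the log2 scale.

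**Figure D5:**
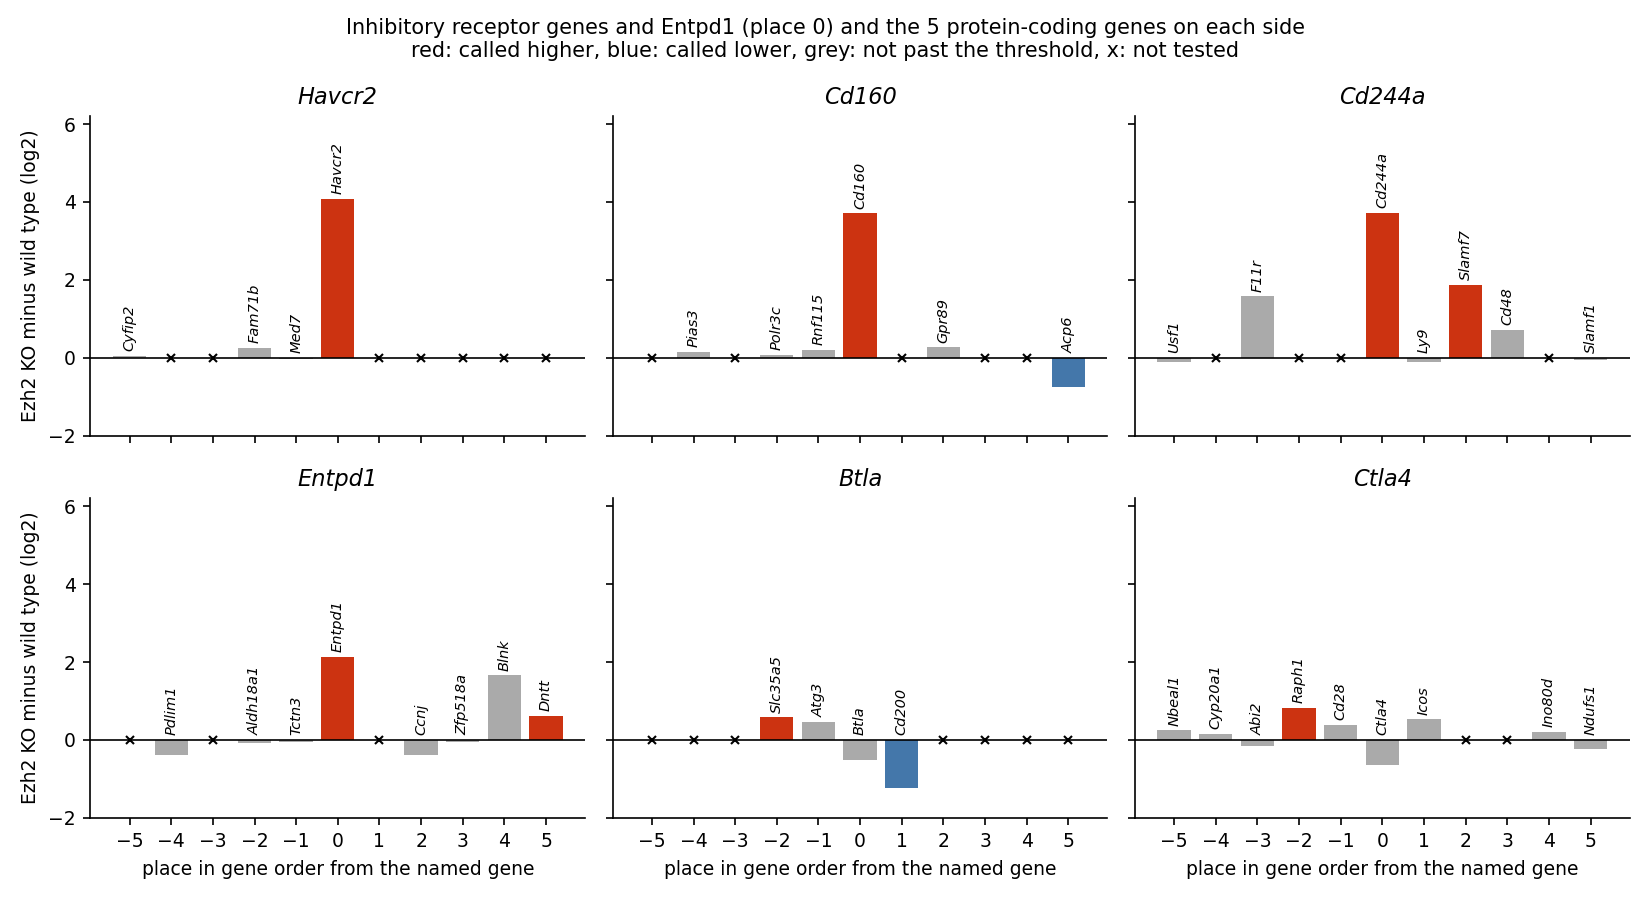
Mean Ezh2 KO minus wild type log2 difference of 6 genes (place 0) and the 5 protein-coding genes on each side in RefSeq order, with red for called higher, blue for called lower, grey for not past the threshold and a cross for genes not tested. Havcr2, at 4.08, and Cd160, at 3.71, stand above tested neighbours of 0.27 or less, and Slamf7, at 1.87, is the called neighbour of Cd244a.

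The cultures carried markers of T cells, Cd4 among them. Summed over 5 genes listed as CD4 T cell markers, intensities were 45880 to 51570 in wild type and 50530 to 58730 in Ezh2 KO. Of the 5, 0 were called. Cd4 itself read 496.2, 476.9 and 548.1 on wild type arrays, against 433, 300.2 and 315.2 on Ezh2 KO arrays. Its differences were -0.20, -0.67 and -0.80. All Ezh2 KO arrays read below all wild type arrays, as for 27.5% of all genes tested. The Cd4 mean of -0.55 ± 0.32 did not pass (limma adjusted p = 0.09138). Cd3d, Cd3e, Cd3g and Thy1 were brighter than Cd4, with means from 0.16 to 0.29. The sum was mostly theirs and does not follow Cd4. Cd160 and Cd244a are also genes of NK cells, and 4 of the 5 measured NK markers (Ncr1, Tyrobp, Klra8 and Klre1) were low on all 6 arrays. The fifth, Fcgr3, was called higher by at least 3.41 ± 0.55, and the summed NK markers read 97.61 to 119.0 in wild type and 216.4 to 314.1 in Ezh2 KO. CD8 chains summed to 389.3 to 414.4 and 373.7 to 539.8, with 0 of 2 called. Gamma delta T cell markers summed to 86.13 to 183.2 and 250.9 to 278.9, where Cd163l1 was called higher and Sox13 was low throughout.

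Ctla4 and Entpd1 mark regulatory T cells too. Foxp3, which defines them, read 69.27, 54.05 and 56.38 on wild type arrays, against 51.42, 45.94 and 34.88 on Ezh2 KO arrays. It was low on 2 wild type and 3 Ezh2 KO arrays. Of 6 regulatory T cell markers tested, 0 were called higher and 1 lower, Gpr83 by 1.64 ± 0.23. They summed to 9819 to 12370 in wild type and 8693 to 11930 in Ezh2 KO. Most of each sum was Il2ra, at 6623 to 9272, so these sums do not give the level of regulatory T cells. Myeloid markers, which bear on Havcr2 and Entpd1, summed to 254.2 to 411.3 and 237.7 to 337.6, with 5 of 7 low throughout and 0 called. B cell markers summed to 140.4 to 317.7 and 387.2 to 1014, with Ms4a1 called higher and Cd79a and Pax5 low throughout. Follicular helper markers, which bear on Pdcd1 and Btla, summed to 1917 to 2496 and 2241 to 2577, with 3 of 5 low throughout and 0 called. Sh2d1a alone read 1811 to 2410, so these sums do not give the level of follicular helper cells. The part of such cells in the differences above was not tested, beyond these marker readings.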

How the data were processed

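RNA of the 6 cultures was labelled with a 3' IVT kit, per the labels' protocols, and read on Affymetrix arrays. The authors deposited 1 linear intensity per probe set and array. They used Affymetrix Expression Console, per the submitters' processing notes, whose version and algorithm are not given in the sources used here. The deposited intensities had a mean of 500.003 on every array after trimming 2% at each end, and medians from 61.29 to 69.06. Dim genes are limited by their signal over background.

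Probe sets were named through the platform's annotation. Intensities below the 20th percentile (11.33) were set to it before log2. Each of 18193 genes was represented by its probe set of highest mean, and genes with at least 1 array at 64.43 or more, the overall median, were tested. Culture and genotype entered an additive limma 3.58.1 fit in R 4.3.3 over all 6 arrays (2 residual degrees of freedom, prior 1.66). A run on simulated data with independent noise checked only the sign and mean size of planted changes. It does not test the p-values. "At least" marks a fold or difference with a floored array in the lower genotype. Where a wild type reading was low its size is uncertain. Named were the 9 genes, Ezh2, up to 4 called genes per list (6 for ligands and transcription factors) and the 3 genes of nearest profile. Genes past no threshold, neighbours, Cd2, Cd6, Vsir, Bach2, Nr4a1 and Ikzf2 were chosen after they were seen. The genes and lists were chosen with earlier results of these data known. Alternatives covered scaling, filter, floor, log transform, probe sets, moderation, the block and leaving out each culture. A planned search for protein motifs was not run.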

Additional observations from a re-analysis of the deposited data

Results flagged for a closer look

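Ctla4 had genotype differences of opposite sign between cultures: the log2 difference of Ezh2 KO from wild type was -1.08 in unpolarized and -1.02 in Th1 cultures and 0.14 in Th2 cultures. Each value rests on 1 array of each genotype, so the difference between cultures was not tested. Over all genes tested, 37.6% did not have the same sign in the 3 cultures.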

How the results depend on the processing

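The rises of Havcr2, Cd160, Cd244a and Entpd1 kept their direction in all 13 alternatives in which each could be tested, and passed the threshold in 9. The other 4 were no filter on dim genes (0 genes called in all, 4711 with an unadjusted p under 0.05, and 0 of the 9 genes) and leaving out the unpolarized, Th1 or Th2 pair, where in each case 0 genes in all and 0 of the 9 were called, with 2952 to 3227 genes at an unadjusted p under 0.05; 1 residual degree of freedom was then left. Adjusted p-values of the 4 genes were 0.0769 to 0.0797 without the filter and 0.0803 to 0.112 without a culture. A filter at the 60th percentile of gene means removed all 4 and left 2 of the 9 genes, of which 1 was called, Btla as lower (adjusted p = 0.00721), among 3050 genes called. The count over all genes was also above 1.5 times the 1890 with log2 of the value plus 64 (2969), an intensity trend (3983) and no culture block (2838). Centring arrays on their medians gave 863 higher and 411 lower genes, moving the median difference of all genes from -0.07 to -0.02. Btla passed in 5 of 14 alternatives and Ctla4 in 1 of 14, with no change of direction. Pdcd1 passed in 0 of 13. Of 84 recomputed counts of pathway lists, 35 moved by over 1.5 times, 24 of them with no filter or with a culture left out. Of 216 within-culture differences, 28 moved by more than the spread over cultures and 0 reversed. A reversal was counted only where the main difference was at least 1 in size on the log2 scale. The filter settings act after these differences are taken, and the setting with every probe set kept the probe set of highest mean. Neither could move them. The genotypes were paired by culture throughout, with culture as the block, and the labels give no replicate numbers for another pairing.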
